A study of Homo sapiens with 12 samples.

Results

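Extracellular vesicles (EV), membrane-bound particles in which cells release RNA, were compared between immature cardiomyocytes (CMi) at day 15 and cardiac progenitor cells (CPC) at day 6 of the same differentiation. The members are the 3 CMi-EV and the 3 CPC-EV libraries, 6 of the 12 libraries of the series, and their labels alone chose them. All came from iPS(IMR90)-4, an established line of induced pluripotent stem cells, so a single genetic background is represented. For CPC-EV, cells grew as a 2D monolayer in RPMI with B27 without insulin, and the medium was conditioned for 72 h. That medium also held IWR-1, used in the protocol to modulate Wnt signalling. For CMi-EV, cells grew as 3D aggregates in suspension in RPMI with B27 with insulin, and the medium was conditioned for 48 h. Each library is an independent EV preparation, isolated on a density gradient. Stage, medium, culture format and conditioning time changed together, so their effects cannot be told apart.

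Library totals were 3891987, 7071055 and 3686897 reads for CPC-EV 1, 2 and 3, and 3436814, 3057436 and 2161205 for CMi-EV 1, 2 and 3. Of these, 1680153, 3380608 and 1539043 counts fell on miRNA in CPC-EV and 2163510, 1686607 and 1364735 in CMi-EV. Levels are CPM (counts of an RNA class scaled to the same total in every library, after the trimmed mean of M-values, TMM), and values for single libraries follow the order 1, 2, 3 in each group. A group at 0 in its 3 libraries was set to a floor of 3 counts per library to give the lowest fold that the depth allows. For miRNA that floor was 1.28 CPM in CPC-EV and 2.09 CPM in CMi-EV, as the mean of 3 libraries. Reads carry no molecular identifiers, so floors and intervals cover counting error only. CMi-EV 3, the shallowest of the 6, stood apart from CMi-EV 1 and 2 in several miRNA linked to other tissues, which are given with their lists, and leaving it out gave 97 DE miRNA in place of 83.

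A miRNA is a short RNA of about the length of the sequences printed here, cut from a hairpin whose arms give the -5p and -3p forms. It guides a silencing complex to messages that pair with its seed, bases 2 to 8, so miRNA with the same seed share most predicted targets. Many miRNA genes lie in clusters that are transcribed together. The miR-302 and miR-367 cluster is a hallmark of pluripotent cells, miR-1 and miR-133 are made in striated muscle, and miR-208 lies in introns of cardiac myosin genes. EV carry a sample of the RNA of the cells that release them, and a lower level in EV cannot be told apart from fewer releasing cells or less loading per vesicle.

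Of the 1133 miRNA in the table, 978 matched a mature sequence in RefSeq (GRCh38.p14). The sequences below belong to 19 of the 20 most abundant miRNA that differed, 10 in each direction. The others are their most abundant seed partners among matched miRNA. miR-30d-5p found no match and is missing. Capitals mark the seed, and sequences run 5′ to 3′. The seed ACCCGUA is shown because the miR-99/100 family took up the largest share of CMi-EV miRNA.
miR-100-5p: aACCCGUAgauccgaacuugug
miR-99a-5p: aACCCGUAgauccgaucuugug
miR-99b-5p: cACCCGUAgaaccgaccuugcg

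The seed CCCUGAG belongs to the miR-125 family, encoded beside the miR-99/100 family, and GUAAACA to the miR-30 family, both higher in CMi-EV.
miR-125a-5p: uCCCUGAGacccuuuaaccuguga
miR-125b-5p: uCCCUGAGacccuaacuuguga
miR-30e-5p: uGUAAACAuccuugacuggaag
miR-30c-5p: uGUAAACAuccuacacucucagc
miR-30a-5p: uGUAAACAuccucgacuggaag

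Among the other miRNA higher in CMi-EV, miR-1-3p is the muscle miRNA, miR-143-3p is known from smooth muscle and the early heart, and miR-10a-5p comes from a HOX locus. The last of these is shown because its bases beyond the seed resemble those of miR-100-5p while its seed is another one.
miR-1-3p: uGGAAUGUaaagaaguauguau
miR-143-3p: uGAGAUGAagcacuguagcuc
miR-10a-5p: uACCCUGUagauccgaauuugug

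Lower in CMi-EV were both arms of the miR-302 hairpins, which carry unlike seeds, CUUAAAC on miR-302a-5p but AAGUGCU on the 3p arms, and are shown as the most abundant miRNA of that cluster.
miR-302a-5p: aCUUAAACguggauguacuugcu
miR-302b-3p: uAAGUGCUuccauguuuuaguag
miR-302c-3p: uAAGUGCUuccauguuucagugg

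The seed AUUGCAC is shared by miRNA of separate clusters that differed to unlike degrees.
miR-92a-3p: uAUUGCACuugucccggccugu
miR-92b-3p: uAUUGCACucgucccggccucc
miR-363-3p: aAUUGCACgguauccaucugua
miR-25-3p: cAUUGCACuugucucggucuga

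The remaining sequences are miRNA lower in CMi-EV that share their seed with no other abundant miRNA of these libraries.
miR-183-5p: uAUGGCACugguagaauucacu
miR-182-5p: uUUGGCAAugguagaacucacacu
miR-146b-5p: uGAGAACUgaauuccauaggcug
miR-200b-3p: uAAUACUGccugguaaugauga
miR-375-3p: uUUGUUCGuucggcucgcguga
miR-222-3p: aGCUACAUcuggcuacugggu

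The RNA classes took unequal shares of CPC-EV and CMi-EV libraries. Of the counts on the 5 classes, miRNA made up 51.8%, 58.1% and 50.1% in CPC-EV and 70.7%, 62.4% and 74.5% in CMi-EV. The groups did not overlap, and the means differed by 15.9 percentage points. Gencode transcripts took 23.7% ± 1.09 (SD, n = 3) in CPC-EV and 15% ± 3.29 in CMi-EV, and piRNA 14.3% ± 2.20 and 7.75% ± 2.24, again with no overlap. tRNA and circular RNA shares overlapped between the groups. In an exact permutation test, two-sided, 3 against 3 libraries cannot give less than p = 0.1, which miRNA, gencode transcripts and piRNA reached (0.167 after adjustment over the 5 classes).

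**Figure D1:**
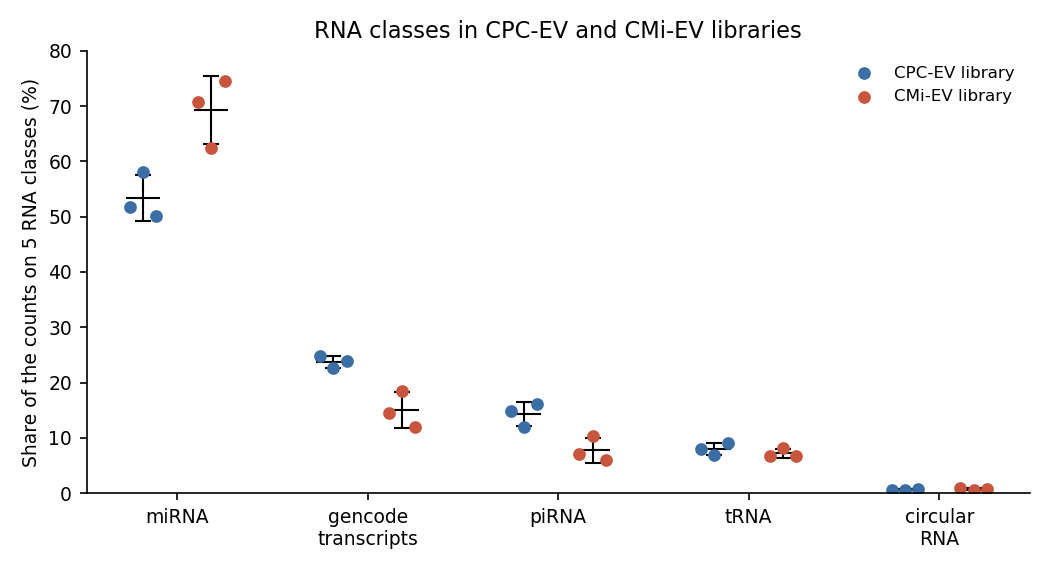
Share of the counts on 5 RNA classes in each library, in percent, with the mean and SD of 3 libraries per group. The CMi-EV libraries lie between 62.4% and 74.5% for miRNA, all above the CPC-EV libraries, and lie below them for gencode transcripts and piRNA.

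Between the stages, miR-100-5p, miR-99a-5p, miR-125b-5p and the muscle miRNA were higher in CMi-EV, and miR-302a-5p, miR-302b-3p, miR-183-5p, miR-182-5p and miR-200b-3p were lower. Of 292 tested miRNA, 83 (28.4%) were differentially expressed (DE), meaning FDR ≤ 0.05 and levels that differ by 1 or more on the log2 scale, with 42 (14.4%) higher and 41 (14%) lower in CMi-EV. Libraries did not overlap between the groups for 151 of the 292 (51.7%). With class totals in place of TMM the split became 31 higher (10.6%) and 56 lower (19.2%), since that scaling moved the median over the 292 from -0.05 to -0.52 on the log2 scale. Leaving out CPC-EV 3 gave 38 higher and 64 lower, with a median of -0.39. A miRNA was tested when it had at least 5 CPM in each library of 1 group or both. Of those tested, 189 passed in both groups, 28 of them higher and 30 lower. Only through CPC-EV passed 67, which held 11 of the lower ones, and only through CMi-EV 36, which held 14 of the higher ones, and these had to differ to some degree.

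**Figure D2:**
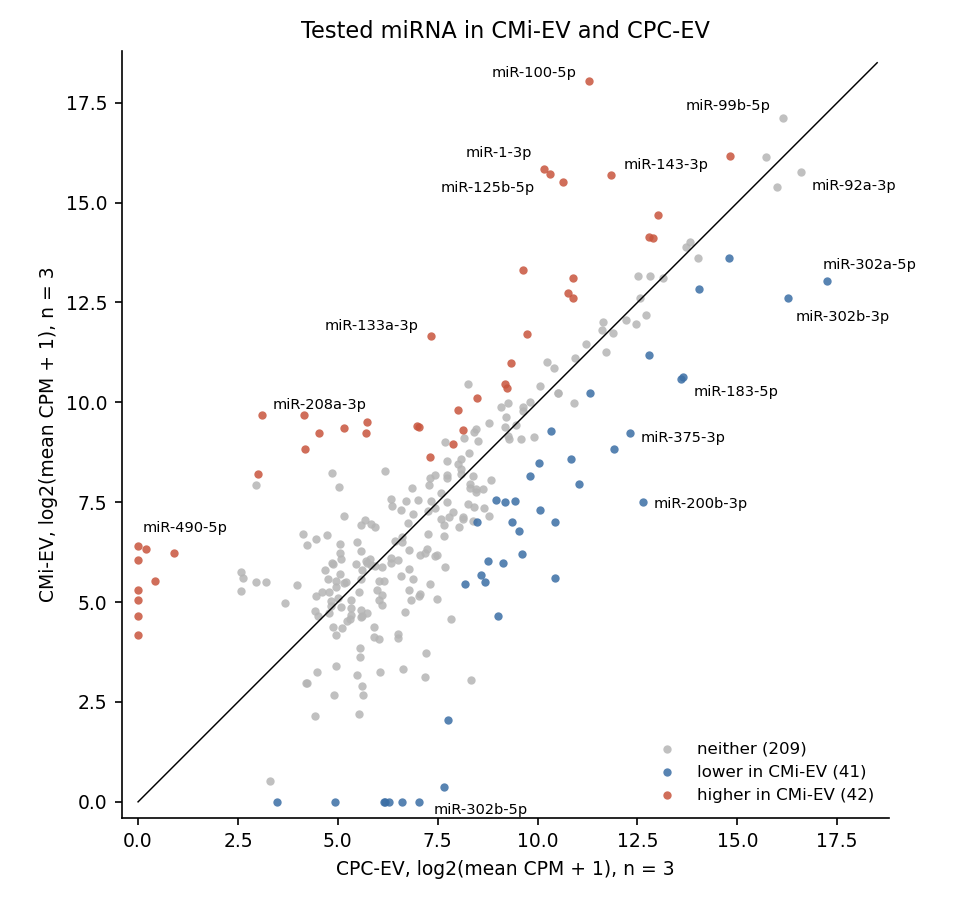
Mean level of each of the 292 tested miRNA in CPC-EV (horizontal) and CMi-EV (vertical), as log2 of the mean CPM of 3 libraries plus 1, with the line of equal levels. The 42 miRNA higher in CMi-EV reach up to miR-100-5p, with means of 2498 and 268919 CPM, and the 41 lower ones down to miRNA at 0 in CMi-EV such as miR-302b-5p.

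miR-100-5p changed most among the abundant miRNA. Its level was 2162, 1870 and 3462 CPM in CPC-EV and 303400, 202396 and 300961 CPM in CMi-EV. No library of either group came near the other group, and the log2 fold change was 6.75 ± 0.31 (SE, n = 3 per group, FDR = 0.000198). It made up 0.306% ± 0.152 (SD, n = 3) of miRNA counts in CPC-EV and 22.7% ± 3.65 in CMi-EV, where it was the most abundant miRNA in each library. Its seed partner miR-99a-5p, which differs from it in a single base in the sequences printed here, had 1200, 718 and 2832 CPM in CPC-EV and 60239, 42209 and 37367 CPM in CMi-EV. These groups did not overlap either (log2 fold change 4.88 ± 0.49, FDR = 0.00114). miR-99b-5p was already abundant in CPC-EV, with 67554, 68903 and 80053 CPM, against 182903, 111539 and 128504 CPM in CMi-EV. All 3 CMi-EV libraries lay above the CPC-EV libraries, yet its log2 fold change of 0.97 ± 0.24 (FDR = 0.0234) missed the fold threshold, so it counts as neither.

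The hairpins of this family lie in 3 clusters with let-7 and miR-125 genes, and the cluster mates did not all behave alike. On chromosome 11, miR-100, let-7a-2 and miR-125b-1 lie within 52552 bases. miR-125b-5p, which a copy on another chromosome also encodes, had 989, 785 and 2010 CPM in CPC-EV and 47646, 49528 and 65036 CPM in CMi-EV. The groups did not overlap (log2 fold change 5.42 ± 0.36, FDR = 0.000305). The opposite arms tell the 2 hairpins apart, and both were higher, miR-125b-1-3p by a log2 fold change of 4.72 ± 1.19 (FDR = 0.0371) and miR-125b-2-3p by 2.44 ± 0.32 (FDR = 0.00209). let-7a-5p, with several gene copies, had 306, 317 and 300.2 CPM in CPC-EV and 210.0, 197 and 115 CPM in CMi-EV. All CMi-EV libraries lay below CPC-EV, but it was not DE (log2 fold change -0.82 ± 0.36, FDR = 0.153).

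On chromosome 19, miR-99b, let-7e and miR-125a lie within 728 bases. miR-125a-5p had 26386, 24163 and 35602 CPM in CPC-EV and 71348, 69586 and 77977 CPM in CMi-EV. Each CMi-EV library exceeded each CPC-EV library (log2 fold change 1.35 ± 0.20, FDR = 0.00318), and with class totals the call was lost at a log2 fold change of 0.84. let-7e-5p, a member of the let-7 family that restrains growth and pluripotency genes, had 34.5, 31.2 and 88.9 CPM in CPC-EV and 665, 448 and 689.8 CPM in CMi-EV, with no overlap (3.54 ± 0.48, FDR = 0.00294). On chromosome 21, let-7c lies within 823 bases of miR-99a. let-7c-5p had 1 count in all of CPC-EV, in CPC-EV 3, and 359 counts in CMi-EV, at 57.5, 125 and 58.1 CPM. The ratio of levels was 610.2, with a 95% counting interval of 109 to 24166, and FDR = 0.00469.

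Counts of higher miRNA here and in the lists below are read beside 14.4% higher among all tested miRNA. The miR-99/100 family had 2 of 4 tested members higher and 2 neither. Its median log2 fold change was 3.12, beside -0.05 for all tested miRNA. The miR-125 family had 4 of 5 higher (median 2.44), of which 1 passed the filter only through CMi-EV, and the 4 members that passed in both groups had 3 higher and a median of 1.89. With class totals 2 were higher. In the let-7 family 2 of 4 were higher and 2 neither (median 1.60), but let-7c-5p passed the filter only through CMi-EV, and the 3 that passed in both groups had a median of -0.35. With class totals 1 of the 4 was lower. The summed let-7 level was 458, 443 and 489 CPM in CPC-EV and 1069, 924 and 936 CPM in CMi-EV, a small part of the miRNA at both stages.

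Muscle miRNA separated the stages as well. miR-1-3p, which promotes muscle differentiation, had 873, 908 and 1662 CPM in CPC-EV and 66702, 88150 and 20463 CPM in CMi-EV. CMi-EV 3 was the lowest of its group and still far above CPC-EV (log2 fold change 5.67 ± 0.53, FDR = 0.00107). miR-133a-3p, encoded within 3391 bases of miR-1 on chromosome 18 and 10708 bases on chromosome 20, had 118, 99.7 and 261 CPM in CPC-EV and 3266, 3463 and 2931 CPM in CMi-EV. Here the 3 CMi-EV libraries were close together and the groups did not overlap (4.34 ± 0.37, FDR = 0.000532). miR-133a-5p, the opposite arm, was at 0 in CPC-EV and at 146, 21.8 and 29.1 CPM in CMi-EV, at least 51.4-fold higher (FDR = 0.0137). All 4 tested myomiRs were higher, with a median of 6.02, or 5.68 with miR-133a-5p at its bound, and 2 of them passed the filter only through CMi-EV. miR-206, which marks skeletal muscle, was not tested and had at most 46 counts in a library.

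The miRNA encoded within cardiac genes passed the filter only through CMi-EV, so a difference was fixed by the filter. miR-208a-3p, from an intron of MYH6, had 22.6, 0 and 0 CPM in CPC-EV and 705, 805 and 934 CPM in CMi-EV. CPC-EV 1 alone held it among the progenitor libraries (log2 fold change 6.79 ± 1.46, FDR = 0.0292). Of 16 alternatives 3 ended its call, leaving out CPC-EV 3, CMi-EV 1 or CMi-EV 2, each of which moved the FDR above 0.05, at most to 0.0771. miR-490-5p was at 0 in CPC-EV and at 60.5, 94.4 and 94.0 CPM in CMi-EV, at least 65.0-fold higher (FDR = 0.00453). miR-490-3p had 4.63, 45.5 and 0 CPM in CPC-EV and 785, 749.5 and 930.0 CPM in CMi-EV (5.58 ± 1.25, FDR = 0.0293). All 4 tested miRNA of this list were higher (median 6.19, or 5.80 with miR-490-5p at its bound), but only 1 was called without CMi-EV 2. The adult-type members were nearly missing, with miR-208b-3p at 51 counts in CMi-EV 3 and 0 elsewhere, and miR-499a-5p at 26 counts in CMi-EV 2, 129 in CMi-EV 3 and 0 elsewhere.

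Other abundant miRNA rose with them. miR-143-3p had 2752, 2651 and 5517 CPM in CPC-EV and 46202, 40203 and 70984 CPM in CMi-EV, with no overlap (log2 fold change 3.85 ± 0.36, FDR = 0.000784). miR-145 lies within 1816 bases of it on chromosome 5, and all 4 tested miRNA of the cluster of miR-143 and miR-145 were higher (median 3.10), each having passed the filter in both groups. miR-10a-5p had 488, 754 and 1144 CPM in CPC-EV and 7186, 4473 and 18737 CPM in CMi-EV. CMi-EV 3 was the highest by far, and CMi-EV 1 and 2 also exceeded CPC-EV (3.67 ± 0.56, FDR = 0.00421). miR-10b-5p, encoded at another HOX locus, was at 56.2 CPM on average in CPC-EV and 123 CPM in CMi-EV and was not DE.

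In the miR-30 family, 5 of 7 tested members were higher, none lower and 2 neither, all having passed the filter in both groups, with a median log2 fold change of 1.34 (0.89 with class totals, which left 3 calls). Among all tested miRNA 14.4% were higher. miR-30d-5p had 8393, 8621 and 7890 CPM in CPC-EV and 27841, 27628 and 23700 CPM in CMi-EV. Replicates were close, and the groups lay far apart (1.67 ± 0.15, FDR = 0.000395). The gene of miR-30e-5p neighbours 1 of the 2 loci that encode miR-30c-5p, on chromosome 1. These miRNA had log2 fold changes of 1.22 ± 0.14 (FDR = 0.00107) and 1.34 ± 0.17 (FDR = 0.00184), each higher in all 3 CMi-EV libraries. With class totals these 2 fell to 0.76 and 0.89 and were no longer called.

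Further miRNA known from muscle or from differentiated cells were named after their values were seen. miR-22-3p, abundant in heart muscle, had 535, 879.6 and 1156 CPM in CPC-EV and 3796, 2995 and 3266 CPM in CMi-EV (1.97 ± 0.29, FDR = 0.00299). miR-21-5p, known from growth and stress responses, had 2264, 1826 and 1585 CPM in CPC-EV and 5118, 5150 and 8469 CPM in CMi-EV (1.72 ± 0.25, FDR = 0.00299). Neither overlapped between the groups. miR-378a-3p, from an intron of the metabolic regulator PPARGC1B, had a log2 fold change of 1.65 ± 0.28 (FDR = 0.0045), and the other tested member of its list was not DE. In the miR-181 family 2 of 4 were higher, and 1 with class totals, without CPC-EV 2 or without any 1 CMi-EV library, but 3 of the 4 passed the filter only through CMi-EV and had to differ. In the miR-23/27/24 clusters 2 of 7 were higher, miR-24-3p and miR-23a-3p, and the list median of 0.35 turned to -0.11 with class totals, where none was called, and 1 was called without CPC-EV 1, CPC-EV 3, CMi-EV 1 or CMi-EV 2. The miR-26 family had 3 tested and none DE, with 1 higher without CPC-EV 1. miR-26a-5p, among the most abundant miRNA of these libraries, had 52198, 65462 and 43437 CPM in CPC-EV and 74139, 64939 and 77534 CPM in CMi-EV, and these groups overlapped.

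**Figure D3:**
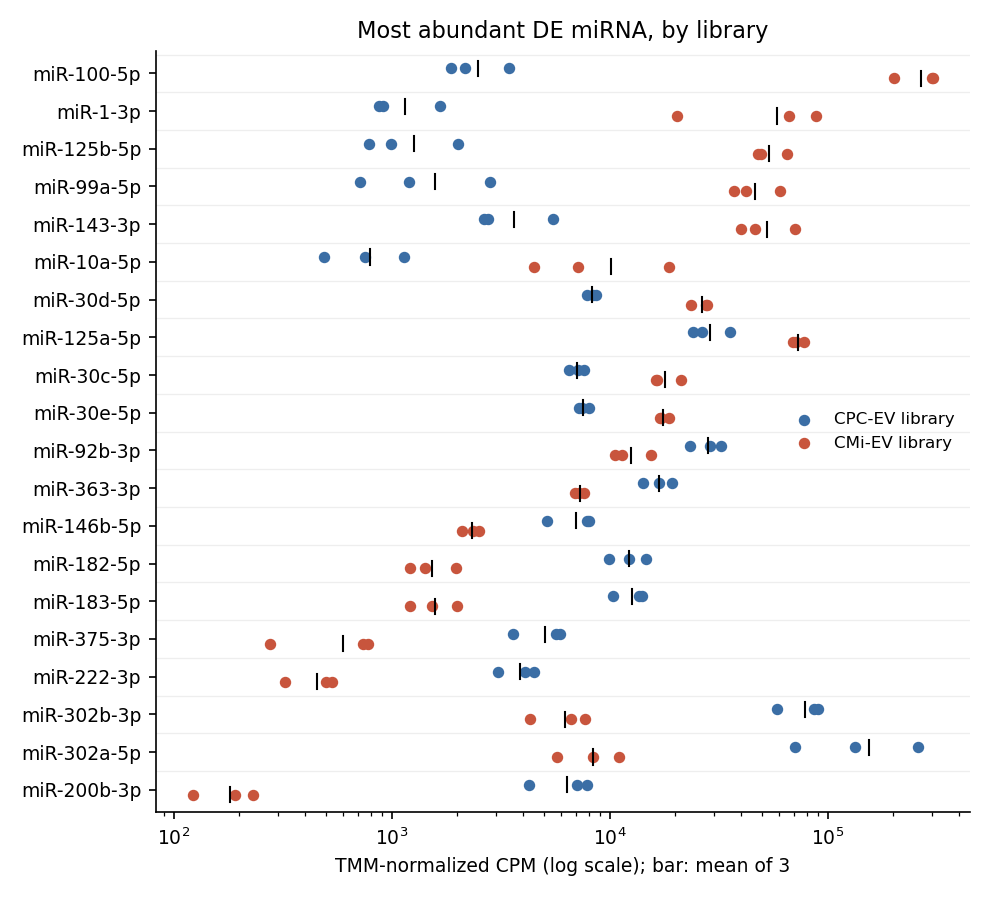
Level of the 10 most abundant DE miRNA in each direction in every library, as CPM on a log axis, with a bar at the mean of 3 libraries. For miR-100-5p the CPC-EV libraries lie between 1870 and 3462 CPM and the CMi-EV libraries between 202396 and 303400 CPM, and in none of the 20 miRNA do the groups overlap.

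The miR-302 and miR-367 cluster, which spans 684 bases on chromosome 4 and is switched on by the pluripotency factors, was still prominent in CPC-EV. miR-302a-5p had 133754, 260244 and 71147 CPM in CPC-EV and 11086, 8364 and 5720 CPM in CMi-EV. The CPC-EV libraries differed widely from each other, and even the lowest lay well above CMi-EV (log2 fold change -4.21 ± 0.48, FDR = 0.00187). Its share of miRNA counts was 15.5%, 26.4% and 9.82% in CPC-EV and 0.864%, 0.772% and 0.490% in CMi-EV. miR-302b-3p had 90443, 86712 and 58604 CPM in CPC-EV and 6671, 7668 and 4325 CPM in CMi-EV, again with no overlap (-3.66 ± 0.28, FDR = 0.000305). Its opposite arm miR-302b-5p, at 122, 76.6 and 192 CPM in CPC-EV, was at 0 in CMi-EV and at least 62.3-fold lower (FDR = 0.00439). That arm passed the filter only through CPC-EV, so it had to differ.

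Of the 10 tested members of the cluster, 8 were lower and 2 neither (median -3.54), and 9 of the 10 did not overlap between the groups, beside 51.7% of all tested miRNA. Among all tested miRNA 14% were lower. The 6 cluster members that passed the filter in both groups were all lower. The members not called, miR-302e and miR-367-3p, were rare, with miR-367-3p at 16.5, 180.4 and 95.5 CPM in CPC-EV and 0, 27 and 0 CPM in CMi-EV. Summed, the cluster was at 229913, 353658 and 133700 CPM in CPC-EV and 18496, 16670 and 10528 CPM in CMi-EV. It was lower at day 15 but not gone, since miR-302a-5p and miR-302b-3p kept means of 8390 and 6222 CPM.

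Other miRNA of early development were also lower. miR-371a-5p, from the miR-371 to miR-373 cluster of embryonic stem cells, had 1403, 1471 and 1299 CPM in CPC-EV and 163, 127 and 93.2 CPM in CMi-EV, with no overlap (-3.44 ± 0.25, FDR = 0.000305). The other 2 tested members of that list were not DE, among them miR-372-3p, which had 293, 530.1 and 134 CPM in CPC-EV and 0, 21.8 and 0 CPM in CMi-EV (-5.43 ± 1.54, FDR = 0.0639), though all 3 were lower without CMi-EV 2. The 2 members not DE passed the filter only through CPC-EV, and 14% of all tested miRNA were lower. Of the primate-specific C19MC cluster 2 miRNA were tested, and miR-1323 was lower (-2.78 ± 0.46, FDR = 0.00506), with 2 lower without CPC-EV 1, CPC-EV 3 or CMi-EV 2. The imprinted 14q32 cluster had 3 tested and all 3 lower, each of which passed only through CPC-EV, and 9 were lower without CPC-EV 3. miR-654-3p, at 158, 301 and 147 CPM in CPC-EV, kept 1 count in CMi-EV, a ratio of levels of 973 with a 95% counting interval of 174 to 38461. miR-370-3p, at 76.6, 75.2 and 59.8 CPM in CPC-EV, was at 0 in CMi-EV, at least 33.7-fold lower (FDR = 0.00564).

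In clusters tied to proliferation, counts of lower miRNA are read beside 14% lower among all tested miRNA. In the miR-17-92 cluster 2 of 10 tested miRNA were lower and 8 neither (median -1.18), with 5 of the 10 passing the filter only through CPC-EV and 1 of the 2 lower ones passing in both groups. In the miR-106a-363 cluster 2 of 3 were lower (median -2.36), and in the miR-106b-25 cluster 1 of 6 (median -1.13). With class totals the counts were 4, 2 and 4 lower. Without single libraries they were 1 to 3 for miR-17-92 (1 without CPC-EV 1 or 2), 2 to 4 for miR-106a-363 (4 without CPC-EV 3) and 1 to 3 for miR-106b-25 (3 without CMi-EV 1). miR-363-3p had 19338, 16837 and 14222 CPM in CPC-EV and 7649, 7243 and 6957 CPM in CMi-EV (-1.21 ± 0.17, FDR = 0.00209). miR-92b-3p, which lies outside these clusters, had 32436, 28792 and 23249 CPM in CPC-EV and 11415, 15468 and 10594 CPM in CMi-EV (-1.17 ± 0.22, FDR = 0.00625). Both were lower in all 3 CMi-EV libraries. Their seed partner miR-92a-3p was the most abundant miRNA listed for the miR-17-92 cluster. It is encoded at 2 loci, so its level need not come from that cluster alone. miR-92a-3p had 108679, 100556 and 87087 CPM in CPC-EV and 55162, 64623 and 48251 CPM in CMi-EV. It did not overlap between the groups but missed the fold threshold (-0.82 ± 0.20, FDR = 0.021). miR-18a-5p, at 76.6, 65.0 and 88.5 CPM in CPC-EV, was at 0 in CMi-EV, at least 36.7-fold lower (FDR = 0.00548). It passed the filter only through CPC-EV and so had to differ.

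The cluster of miR-183, miR-96 and miR-182, known from sensory and epithelial cells and from pluripotent cells, was lower in its abundant members. miR-183-5p had 13661, 14110 and 10326 CPM in CPC-EV and 1983, 1534 and 1214 CPM in CMi-EV (-3.01 ± 0.23, FDR = 0.000305). For miR-182-5p the values were 12206, 14728 and 9952 CPM in CPC-EV and 1964, 1420 and 1217 CPM in CMi-EV (-3 ± 0.24, FDR = 0.000305). The pair was nearly equal in level within most libraries, neither overlapped between the groups, and miR-96-5p, far less abundant, had a log2 fold change of -2.91 ± 0.43. Of the 4 tested members 3 were lower and 1 neither (median -3.01), beside 14% lower among all tested miRNA. The 3 lower ones passed the filter in both groups, and the other only through CPC-EV.

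miR-200b-3p, of the family that keeps cells epithelial by repressing ZEB1 and ZEB2, had 7057, 7888 and 4251 CPM in CPC-EV and 232, 190.1 and 122 CPM in CMi-EV. It had the largest decrease among the 10 most abundant lower miRNA, and its groups lay far apart (-5.14 ± 0.31, FDR = 0.000305). In its family 2 of 4 were lower (median -2.49), beside 14% of all tested miRNA, and 4 were lower without CPC-EV 3. The 2 lower ones passed the filter in both groups, and the other 2 only through CPC-EV. miR-222-3p, encoded within 968 bases of miR-221 on chromosome X, had 4092, 4480 and 3060 CPM in CPC-EV and 324, 531 and 501 CPM in CMi-EV, with no overlap (-3.10 ± 0.25, FDR = 0.000319). In the cluster of miR-221 and miR-222, which targets the cell cycle inhibitor CDKN1B, 3 of 4 were lower (median -1.95). These 3 passed the filter in both groups, and the other member only through CPC-EV. miR-146b-5p, known as a brake on innate immune signalling, had 7850, 8030 and 5166 CPM in CPC-EV and 2362, 2101 and 2521 CPM in CMi-EV (-1.59 ± 0.21, FDR = 0.00195). Each of its CMi-EV libraries lay below each CPC-EV library.

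miR-489-3p and miR-9-3p were at 0 in CMi-EV, at least 45.8-fold (FDR = 0.00564) and at least 34.5-fold lower (FDR = 0.00718). Both passed the filter only through CPC-EV, so they had to differ. In CPC-EV, miR-489-3p had 126, 110.5 and 51.3 CPM and miR-9-3p, known from neural progenitors, had 104, 39.6 and 72.9 CPM. miR-9-3p was the only 1 of 3 tested neural miRNA that was DE. The summed neural list had 177, 122 and 173 CPM in CPC-EV and 68.8, 23.1 and 76.9 CPM in CMi-EV.

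**Figure D4:**
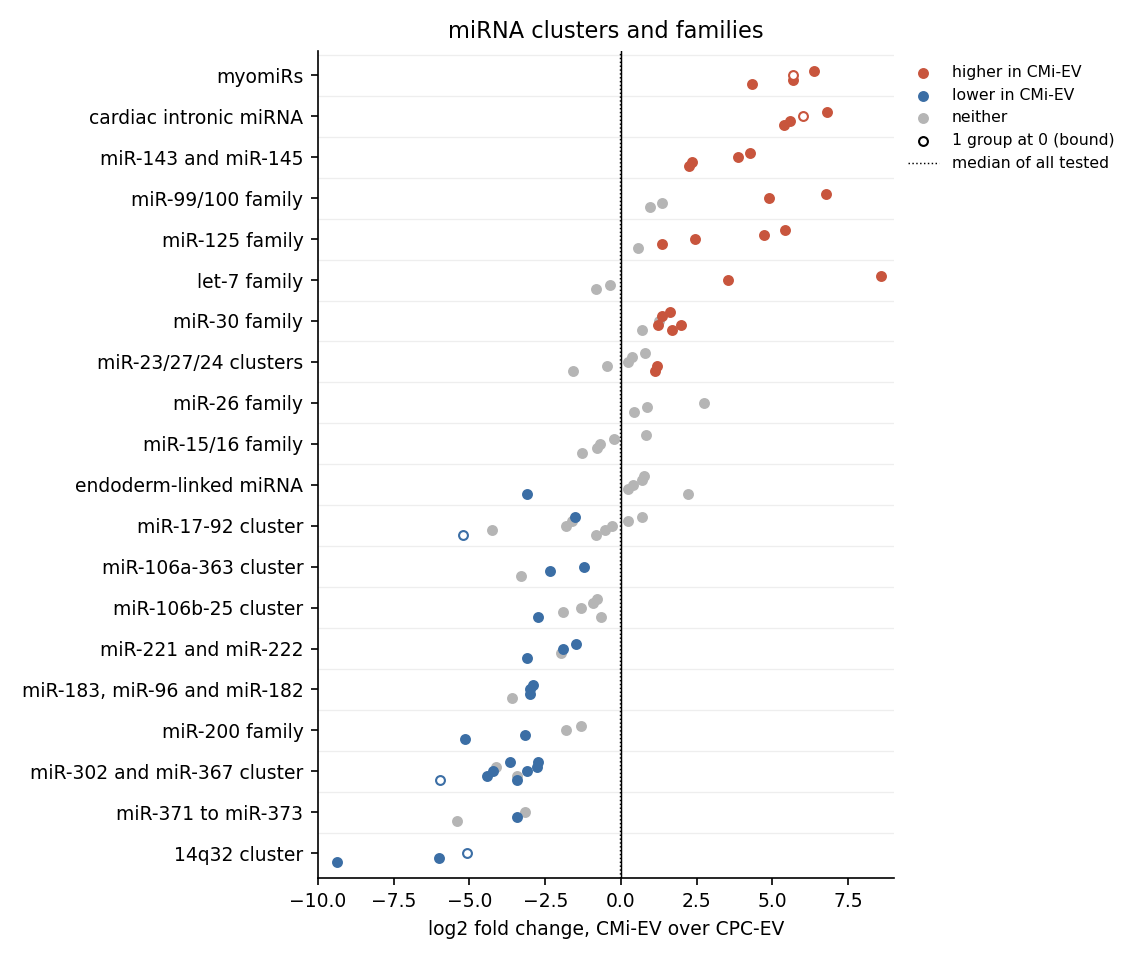
Log2 fold change of each tested miRNA of the clusters and families, with open circles at the bound where a group is at 0, and a dotted line at the median of all tested miRNA (-0.05). The miR-302 and miR-367 cluster lies to the left (8 of 10 lower, median -3.54) and the myomiRs to the right (4 of 4 higher, median 6.02), while the miR-23/27/24 clusters straddle 0 and their median changes sign with class totals. The farthest point to the right, let-7c-5p, rests on 1 count in CPC-EV.

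Apart from the neural list, whose sums did not overlap, the lists of miRNA that mark other tissues did not separate the stages in their sums, and CMi-EV 3 stood apart from CMi-EV 1 and 2 in 3 of them. The endoderm-linked list, whose most abundant miRNA was miR-192-5p, summed to 9669, 10634 and 8419 CPM in CPC-EV and 5429, 4493 and 12254 CPM in CMi-EV. CMi-EV 3 lay above every CPC-EV library and CMi-EV 1 and 2 below them. Of its 6 tested miRNA only miR-375-3p, known from pancreatic islets, was DE, with 5930, 5687 and 3587 CPM in CPC-EV and 775, 737 and 275 CPM in CMi-EV (-3.09 ± 0.41, FDR = 0.00235). miR-122-5p, the leading liver miRNA, had 629, 1443 and 605 CPM in CPC-EV and 409, 329 and 2374 CPM in CMi-EV. miR-483-5p, from an intron of IGF2, had 312, 186 and 419 CPM in CPC-EV, 175 CPM in CMi-EV 2 and 3698 CPM in CMi-EV 3, with CMi-EV 1 inside the CPC-EV range. In both, CMi-EV 3 alone was high, and neither was DE.

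The mesenchymal list summed to 114, 43.4 and 143 CPM in CPC-EV and 46.9, 18.6 and 2738 CPM in CMi-EV, with miR-199b-5p at 876 CPM in CMi-EV 3 and at 0 in CMi-EV 2. miR-214-3p had 85 counts in CMi-EV 3 and 0 elsewhere. Blood and serum miRNA summed to 1278, 1010 and 1458 CPM in CPC-EV and 2761, 2567 and 859 CPM in CMi-EV, nearly all of it miR-486-5p, which muscle also makes and which was not DE. Here CMi-EV 3 lay below every CPC-EV library and CMi-EV 1 and 2 above them, while miR-451a, miR-144-3p, miR-142-5p and miR-150-5p were at 0 in all CMi-EV libraries. Without CMi-EV 3, miR-486-5p, the only 1 tested of this list, was higher, and without CPC-EV 3, 1 miRNA of the list was lower. Endothelial miR-126 was at 65.8, 77.8 and 119 CPM in CPC-EV and 74.1, 80.9 and 83.8 CPM in CMi-EV, and its 2 arms were not DE. None of the 5 tested miRNA of the miR-15/16 family was DE (median -0.70), with 1 lower under class totals, and none of the miR-29 family reached the filter.

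Summed over shared seeds, the miRNA of CMi-EV were dominated by a single one. Of 216 tested seeds, 57 (26.4%) were DE, 29 (13.4%) higher and 28 (13%) lower, and matched miRNA held 95.1% of miRNA counts. The seed ACCCGUA took 8.21%, 7.26% and 11.9% of miRNA counts in CPC-EV and 42.6%, 32.9% and 40.0% in CMi-EV. Its groups did not overlap (log2 fold change 2.60 ± 0.24, FDR = 0.000842), a smaller change than that of miR-100-5p because miR-99b-5p carried the seed in CPC-EV already. CCCUGAG took 3.63% ± 1.39 and 10.8% ± 1.5 (2.10 ± 0.26). GUAAACA was higher by 1.40 ± 0.14, a call lost with class totals. Its sum holds miR-30a-5p, miR-30c-5p and miR-30e-5p alone and lacks unmatched members of the family, miR-30d-5p among them. The seeds of miR-1-3p and miR-143-3p were higher by 5.62 ± 0.52 and 3.87 ± 0.42. The let-7 seed GAGGUAG, named after its values were seen, was higher by 1.09 ± 0.19 (FDR = 0.00648). Class totals moved the median over all tested seeds from -0.20 to -0.61, so this call near the fold threshold may not hold under them.

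On the other side, AAGUGCU, the seed of the miR-302 3p arms shared with miR-372-3p and miR-373-3p, took 11.0%, 9.38% and 8.49% in CPC-EV and 0.570%, 0.757% and 0.405% in CMi-EV, with no overlap (-3.60 ± 0.22, FDR = 0.000123). The seed CUUAAAC is carried by miR-302a-5p alone, and its log2 fold change was -4.18 ± 0.44. For AUGGCAC, carried by miR-183-5p alone, it was -3 ± 0.17, for UUGGCAA, the seed of miR-182-5p, -2.99 ± 0.19, and for GAGAACU, which miR-146a-5p shares with miR-146b-5p, -1.52 ± 0.20. All 4 were lower in each CMi-EV library. AUUGCAC, with 4 abundant carriers, had -0.90 ± 0.16 (FDR = 0.00699) and missed the fold threshold. The 10 most abundant miRNA of a library held 71.3% ± 2.79 of miRNA counts in CPC-EV and 73.5% ± 1.72 in CMi-EV. The leading miRNA changed while their joint share stayed close.

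Among longer transcripts, CMi-EV held more fragments of sarcomere messages and fewer of histone messages. Gencode features, transcripts grouped by gene name and biotype, numbered 39666 in the table, and 1723 with at least 10 counts in each library of a group were tested. Of these 506 (29.4%) were DE, 53 (3.08%) higher and 453 (26.3%) lower. The lower ones rest on the filter to a large degree, since 1361 features passed only through CPC-EV, with 443 of the 453, and 323 of the 453 were at 0 in CMi-EV. Gencode counts were 801988, 1313888 and 733045 in CPC-EV and 445500, 499442 and 218887 in CMi-EV, and with fewer counts fewer features can pass through CMi-EV. Among the 266 that passed in both groups, 34 were higher and 10 lower, with a median log2 fold change of 0.74. Over all 1723 the median was -1.32 (-1.15 with groups at 0 at their bound), -1.76 with class totals and -2.31 with library totals, and changes of gencode lists are read beside it. The count rose to 796 without CPC-EV 1 and 1047 without CPC-EV 3, and fell to 36 with no filter and to 2 with the filterByExpr function.

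CMi-EV carried several cardiomyocyte markers, and others had no counts at this depth. TTN, the giant spring of the sarcomere, had 1008, 783 and 1401 CPM of gencode counts in CPC-EV and 9973, 12253 and 11860 CPM in CMi-EV. No CPC-EV library came near CMi-EV (log2 fold change 3.42 ± 0.28, FDR = 0.00656), and the call was lost only with filterByExpr (FDR = 0.0635). MYH6, the myosin heavy chain whose gene hosts miR-208a, had 154, 70.2 and 145 CPM in CPC-EV and 1937, 3025 and 1839 CPM in CMi-EV, with no overlap (4.20 ± 0.43, FDR = 0.0175). MYH7, the other cardiac heavy chain, had 9.82, 7.15 and 1.15 CPM in CPC-EV and 208, 185 and 115 CPM in CMi-EV (4.76 ± 0.88, FDR = 0.0185). TNNT2, cardiac troponin T, had 39.3, 0.650 and 5.75 CPM in CPC-EV and 250.1, 395 and 539.8 CPM in CMi-EV (4.70 ± 1.15, FDR = 0.032). TNNI1, the fetal troponin I, had 1.09, 22.1 and 6.90 CPM in CPC-EV and 552, 436 and 85.0 CPM in CMi-EV (5.11 ± 1.06, FDR = 0.0203).

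Of 20 tested cardiomyocyte features, from 11 of the 23 genes listed, 7 were higher, none lower and 13 neither, beside 3.08% higher among all tested features. Of these 20, 10 passed the filter only through CMi-EV and so had to differ, while most of all tested features passed only through CPC-EV, so the medians of 3.69 for the list and -1.32 for all features are in large part set by the filter. Among features that passed in both groups, 3 of 8 cardiomyocyte features were higher, with a median of 1.83, beside 34 of 266 and a median of 0.74. Summed, the list was at 1971, 1777 and 2470 CPM in CPC-EV and 17082, 20153 and 18382 CPM in CMi-EV. MYL2, NPPA and TNNI3, markers of more mature or stressed myocytes, had no counts after rounding in any of the 6 libraries, and PLN and NPPB had counts in CMi-EV 3 alone.

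Markers of progenitors were thin at this depth. ISL1, GATA5 and MESP1 had no counts in any of the 6 libraries, and the name NKX2-5 was not found, since all but 6 of the 39666 feature names in the table hold no hyphen. The protein-coding feature of HAND2 had 41.5, 137 and 31.1 CPM in CPC-EV and, after rounding, 0 in CMi-EV, at least 6.91-fold lower (FDR = 0.0214), and was the only 1 of 3 tested progenitor features that was DE, while an antisense feature under the same name had 1 count in CMi-EV 3. The protein-coding feature of HAND2 passed the filter only through CPC-EV, so it had to differ. Without CMi-EV 1 or CPC-EV 2, 1 progenitor feature was higher and 1 lower, and without CPC-EV 3, 2 were lower. GATA4 had 51.3, 54.0 and 28.8 CPM in CPC-EV and 35.4, 155 and 195 CPM in CMi-EV, so its groups overlapped. Summed over the 18 progenitor genes, levels were 444, 588 and 265 CPM in CPC-EV and 311, 558 and 505 CPM in CMi-EV, and the groups overlapped.

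Pluripotency messages, summed over 14 genes, were at 552, 724 and 614 CPM in CPC-EV and 229, 152 and 60 CPM in CMi-EV, with no overlap. Of the 2 features tested, both of which passed the filter only through CPC-EV, 1 was lower and 1 neither. The lower one was a nonsense-mediated decay form of PODXL, a surface protein of pluripotent cells, at 40.4, 58.5 and 47.2 CPM in CPC-EV and 0 in CMi-EV, at least 4.81-fold lower (FDR = 0.0185). LIN28A, the repressor of let-7 maturation, had 107, 281 and 466 CPM in CPC-EV and 113, 27.6 and 10.0 CPM in CMi-EV. CMi-EV 1 lay within the CPC-EV range, and the difference was not DE (-2.47 ± 0.96, FDR = 0.112). Without CMi-EV 1, and with library totals, both tested pluripotency features were lower. Without CPC-EV 1 or CPC-EV 3, 2 were lower as well. NANOG had no counts after rounding in any of the 6. The 16 cell cycle genes summed to 376, 509 and 234 CPM in CPC-EV and 123, 188 and 0 CPM in CMi-EV, with no overlap. AURKB, a mitotic kinase and the only feature tested, had 25.1, 14.3 and 23 CPM in CPC-EV and 0 in CMi-EV, at least 2.06-fold lower (FDR = 0.0185). AURKB passed the filter only through CPC-EV, so it had to differ. Without CPC-EV 1 and without CPC-EV 3, 3 and 4 cell cycle features were lower.

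Histone transcripts, most of them made in S phase, had the lowest median of the transcript lists with more than 3 tested features. HIST1H4E had 2853, 3948 and 2401 CPM in CPC-EV and 271, 235 and 235 CPM in CMi-EV. The groups lay far apart (-3.63 ± 0.32, FDR = 0.00737), and it was the only 1 of 20 named gencode features called under all 13 alternatives. Of 68 tested histone features, 43 were lower (63.2%, beside 26.3% of all tested features), none higher and 25 neither, with a median of -5.41, or -3.04 with groups at 0 at their bound. Only through CPC-EV passed 65 of the 68, which had to differ, as did 1361 of all features, of which 443 were lower, and of the 2 that passed in both groups 1 was lower. Summed, histone features were at 13875, 15784 and 11426 CPM in CPC-EV and 2350, 1760 and 600 CPM in CMi-EV.

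Of 171 tested ribosomal protein features, 24 were lower (14%, beside 26.3% of all), none higher and 147 neither, with a median of -1.62. Of these, 140 passed the filter only through CPC-EV. Among the 31 that passed in both groups 5 were lower, with a median of -0.96, beside 10 of 266 lower and a median of 0.74 for all such features. Without single libraries 16 (without CPC-EV 2) to 44 (without CMi-EV 2) ribosomal features were lower. With class totals 33 were lower, and with library totals 54 (median -2.56). Among all 1723 tested features the lower ones numbered 495 and 610 under these scalings. RPS7 had 1817, 2410 and 1780 CPM in CPC-EV and 311, 547 and 289.9 CPM in CMi-EV, with no overlap (-2.39 ± 0.38, FDR = 0.0185). RPL23, which overlaps the small nucleolar RNA genes SNORA21 and SNORA21B on its strand, had -2.92 ± 0.56 (FDR = 0.0185), and the table cannot say from which of them its reads came. ANP32B and TAF15, both RNA or chromatin binding proteins, had log2 fold changes of -3.72 ± 0.48 (FDR = 0.0185) and -1.76 ± 0.53 (FDR = 0.0463), each lower in all 3 CMi-EV libraries. The TAF15 call was lost in 7 of 13 alternatives, among them no filter and leaving out CPC-EV 1, CPC-EV 2, CMi-EV 1 or CMi-EV 3. RPL6 had 1012, 1106 and 827 CPM in CPC-EV and 149, 221 and 75.0 CPM in CMi-EV (-2.72 ± 0.48, FDR = 0.0185).

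Y RNA, small RNA bound by the Ro protein and common in EV, made up most of the gencode counts. The Rfam row for Y RNA, RF00019, named after its values were seen, held 30% ± 2.34 (SD, n = 3) of gencode counts in CPC-EV and 31.3% ± 2.75 in CMi-EV. RNY1 held 15.4% ± 0.664 and 7.49% ± 0.858, RNY4 5.82% ± 0.472 and 9.30% ± 1.03. RNY4 had 55468, 48790 and 45639 CPM in CPC-EV and 88823, 144027 and 98474 CPM in CMi-EV. All CMi-EV libraries were higher (1.14 ± 0.21, FDR = 0.0185), but the call was lost in 6 of 13 alternatives, among them class totals, library totals (log2 fold change 0.11), no filter, filterByExpr and leaving out CMi-EV 2. In the list of Y RNA, vault RNA, 7SL and 7SK, 3 of 63 were higher, 2 lower and 58 neither. The 3 higher ones were RNY4 and its pseudogene rows RNY4P7 and RNY4P10. In CMi-EV, RNY4P7 had 55041, 84792 and 70081 CPM and RNY4P10 had 55038, 84502 and 69761 CPM. Values this close mean that the same reads may count for both, so the 3 need not be separate results. Among all tested features, most of which passed only through CPC-EV, 3.08% were higher and 26.3% lower. Of the 50 members that passed in both groups, 3 were higher and 1 lower, with a median of 0.66. All 266 such features had 34 higher, 10 lower and a median of 0.74. The list median of 0.60 turned to -0.41 with library totals, and without CMi-EV 2 none was higher and 6 were lower.

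The medians of small nucleolar and spliceosomal RNA also changed sign with library totals. Of 43 tested small nucleolar RNA 5 were higher and 2 lower (median 0.87, or -0.12 with library totals), beside 3.08% higher and 26.3% lower among all features. Of the 19 that passed in both groups, 5 were higher and none lower. Among all 266 such features 34 were higher and 10 lower. Class totals left 1 of the 43 higher and library totals none. Without single libraries 1 to 8 were higher, fewest without CPC-EV 1 or 2 and most without CMi-EV 3, and 2 to 5 were lower. Of 14 spliceosomal snRNA 2 were higher (median 0.69, or -0.26 with library totals), none without CMi-EV 1 or 2 and 4 without CMi-EV 3. The U2 snRNA rows RF00004 and RNU2 were higher by 1.70 ± 0.44 (FDR = 0.0266) and 1.90 ± 0.47 (FDR = 0.0239), and both calls were lost with library totals, with filterByExpr and without CMi-EV 1 or CMi-EV 2. WDR74, which overlaps the U2 gene RNU2-2P over 191 bases on the same strand, had 838, 883 and 605 CPM in CPC-EV and 8324, 8375 and 1734 CPM in CMi-EV (2.99 ± 0.56, FDR = 0.0185), the lowest CMi-EV value being that of CMi-EV 3. The row MT, which stands for mitochondrial genes whose names are cut before the hyphen, had 1004, 921 and 1020 CPM in CPC-EV and 3839, 4127 and 1334 CPM in CMi-EV. CMi-EV 3 lay just above CPC-EV (1.66 ± 0.44, FDR = 0.0292), and the call was lost in 10 of 13 alternatives, among them class totals, library totals, no filter and leaving out any library except CMi-EV 3.

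**Figure D5:**
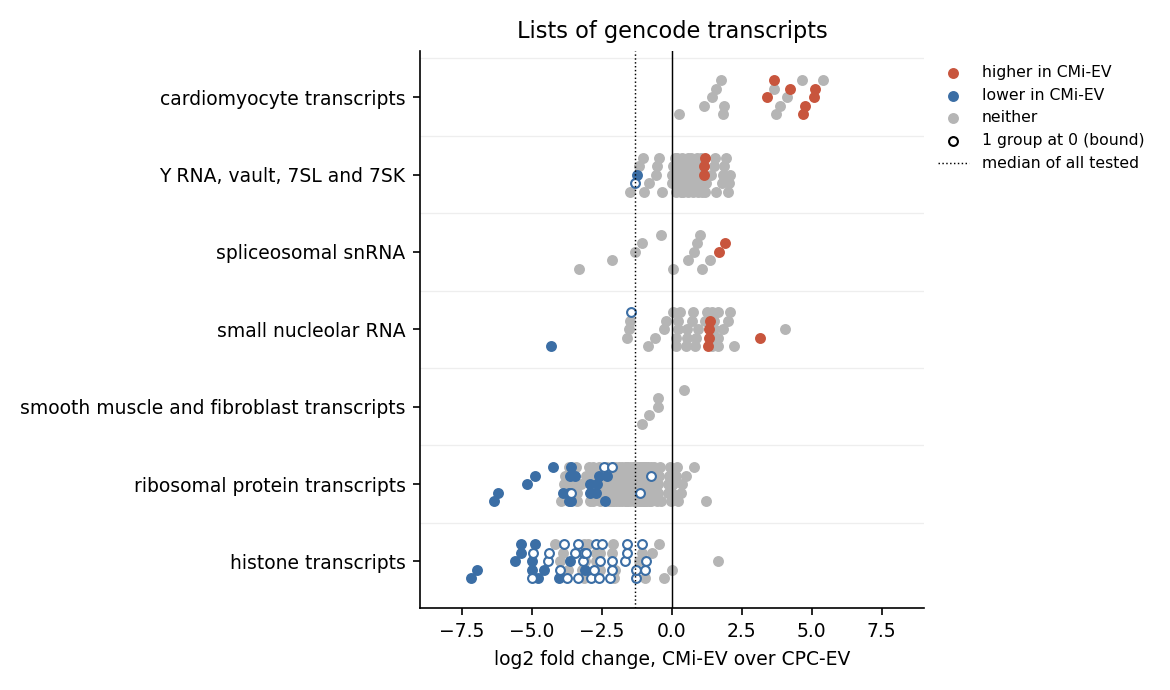
Log2 fold change of each tested feature of the transcript lists, with open circles at the bound where a group is at 0, and a dotted line at the median of all tested features (-1.32). Cardiomyocyte features, 10 of which passed the filter only through CMi-EV, lie to the right (7 of 20 higher, median 3.69) and histone features to the left (43 of 68 lower, median -5.41, or -3.04 at the bound), and the medians of Y RNA, snRNA and small nucleolar RNA lists change sign with library totals.

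Transcripts of endoderm, endothelial and blood cells were scarce in both groups. Endoderm and liver messages, 19 genes, had 176 counts in CPC-EV and 54 in CMi-EV, mostly of APOB, with 15 and 14 genes at 0, ALB, AFP and TTR among them. Summed, they were at 4.37, 39.0 and 129 CPM in CPC-EV and 2.36, 11.0 and 245 CPM in CMi-EV, highest in CMi-EV 3. Endothelial messages had at most 45 counts in a group, and the 6 hemoglobin and blood genes had none. Smooth muscle and fibroblast messages, 12 genes, were less scarce. Summed, they were at 911, 588 and 966 CPM in CPC-EV and 547, 1213 and 320 CPM in CMi-EV, and the groups overlapped. Of 5 tested smooth muscle and fibroblast features none was DE (median -0.50), the most abundant being FN1 with 579, 458 and 531 CPM in CPC-EV and 323, 497 and 289.9 CPM in CMi-EV. With library totals 1 of the 5 was lower (median -1.52), and without CMi-EV 2, 2 were lower.

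Few tRNA features differed. Of 267 tested, 4 (1.5%) were DE, 1 (0.375%) higher and 3 (1.12%) lower, and 37 passed the fold threshold with an unadjusted p under 0.05. The files do not pair the identifiers with tRNA genes. URS000063FB43 had 72373, 82406 and 49506 CPM of tRNA counts in CPC-EV and 15568, 19893 and 11882 CPM in CMi-EV, with no overlap (-2.11 ± 0.27, FDR = 0.0095), and kept its call in all 13 alternatives. URS000065464E had 439, 633 and 745 CPM in CPC-EV and 0 in CMi-EV, at least 34.8-fold lower (FDR = 0.0095). It passed the filter only through CPC-EV and so had to differ. URS000053878C had 1611, 2647 and 2917 CPM in CPC-EV and 5136, 7389 and 7429 CPM in CMi-EV, the only one higher (1.47 ± 0.26, FDR = 0.0406). Its call was lost in 4 of 13 alternatives, among them library totals and leaving out CPC-EV 2 or CMi-EV 3, and that of URS000065464E in 2, 1 of them leaving out CPC-EV 2. The number of DE tRNA features moved with single libraries, to 9, 1 and 7 without CPC-EV 1, 2 and 3 and to 13, 12 and 10 without CMi-EV 1, 2 and 3.

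piRNA counts lay almost wholly on a pair of sequences, piR-33043 and piR-33044. piR-33043 held 59.1%, 58.5% and 57.4% of piRNA counts in CPC-EV and 65.3%, 69.0% and 62.1% in CMi-EV, and piR-33044 40.5% ± 0.889 and 33.2% ± 3.30. Neither was DE. Of 18 tested piRNA 2 (11.1%) were DE, none (0%) higher and 2 (11.1%) lower, and both passed the filter only through CPC-EV. piR-31108 had 121, 150.1 and 93.2 CPM of piRNA counts in CPC-EV and piR-30597 had 76.2, 69.9 and 58.0 CPM. Both were at 0 in CMi-EV, at least 7.16-fold and at least 4.01-fold lower (FDR = 0.00222 each). With no filter both calls were lost, and the single call was another piRNA, piR-34736. By edgeR 4 piRNA passed the fold threshold with an unadjusted p under 0.05, and by DESeq2 4 were DE, 1 of them higher. The count was 4 without CPC-EV 1, 6 without CPC-EV 3 and 5 without CMi-EV 3.

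Circular RNA, closed loops made by back-splicing, had 139 features tested, which held 50.6% of the class's counts. Of these 18 (12.9%) were DE, 3 (2.16%) higher and 15 (10.8%) lower, and each passed the filter only through the group where it was high. The 15 lower ones need not be separate RNA, since some may count the same reads. hsa_circ_0001592 and hsa_circ_0075901 had equal values in every library, as did hsa_circ_0109903 and hsa_circ_0109904. The files do not pair the identifiers with genes. hsa_circ_0001585 had 3035, 3836 and 3772 CPM of circular RNA counts in CPC-EV and 84.5, 53.9 and 0 CPM in CMi-EV. With 3 counts left in CMi-EV, the ratio of levels was 69.3, with a 95% counting interval of 23.5 to 338 (FDR = 0.0101). hsa_circ_0001586 had 3035, 3836 and 3690 CPM in CPC-EV and 0 in CMi-EV, at least 21.8-fold lower (FDR = 0.0101), and its values resemble those of the former so closely that the same reads may count for both. hsa_circ_0132555 had 0, 26.3 and 0 CPM in CPC-EV, 1 count, and 2365, 1724 and 5186 CPM in CMi-EV, a ratio of 242 with an interval of 42.8 to 9606 (FDR = 0.0101). hsa_circ_0110678 had 145, 0 and 82.0 CPM in CPC-EV and 2956, 4040 and 1247 CPM in CMi-EV, with no overlap (5.21 ± 1.12, FDR = 0.0271). Its call was lost in 5 of 13 alternatives, among them leaving out CPC-EV 3 or CMi-EV 2, and none of the 8 named circular RNA kept its call in all 13. The most abundant, hsa_circ_0001446, was at 45053 CPM on average in CPC-EV and 47788 CPM in CMi-EV and was not DE. Without CPC-EV 1, CPC-EV 3 or CMi-EV 2 the count of DE circular RNA was 43, 55 and 29.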

How the data were processed

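The authors processed small RNA reads with exceRpt 4.6.2 (genome hg38, miRNA of miRBase 21) and deposited expected counts per feature and library for 5 RNA classes. Reads that fit several features are shared among them, so values were rounded. Library totals come from the RPM that the authors deposited beside the counts. Labels alone set the members, but members and lists were chosen with earlier results of these data known. Rfam, RNVU1 and MT names were added to 3 transcript lists after their tables were seen.

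Features were tested in edgeR 4.0.16 (R 4.3.3) by quasi-likelihood F-tests, two-sided, on the 6 libraries, with TMM within each class and Benjamini-Hochberg adjustment over all tested features. Filters were 5 CPM (miRNA, seeds) or 10 counts (other classes) in each library of at least 1 group. SE are those of log2 fold changes. Named are the 10 most abundant DE miRNA in each direction, the 5 with the largest change above 50 CPM, list members, and the 5 (gencode 10) most abundant DE features of other classes. The test was also run on simulated counts, where false calls among gencode transcripts, circular RNA and seeds ran above the FDR threshold and many planted changes were missed.

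Alternatives were median-of-ratios, class total and library total scaling, no filter, filterByExpr, DESeq2 1.42.0, other edgeR tests for miRNA, and leaving out each library.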

Additional observations from a re-analysis of the deposited data

How the results depend on the processing

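Of 29 named miRNA, 21 kept their call under all 16 alternatives, and of 10 seeds 9 under all 13. DE miRNA numbered 72 to 102 and DE seeds 50 to 71 without single libraries. No named result changed direction. The difference in miRNA share was 13.3 to 19.3 percentage points without single libraries.

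Other classes moved more, and the cause was not tested. DE tRNA features numbered 7 with median-of-ratios, 11 with class totals, 45 with no filter, 24 with DESeq2 and 1 to 13 without single libraries. DE piRNA numbered 4 with library totals, 1 with no filter, 4 with DESeq2 and 2 to 6 without single libraries. Gencode gave 36 with no filter, 2 with filterByExpr, 780 with DESeq2 and 614 to 1047 without single libraries. Circular RNA gave 4 with no filter, 4 with filterByExpr, 29 with DESeq2 and 23 to 55 without single libraries.

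With a replicate block, DE features numbered 69 for miRNA, 45 for seeds, 7 for tRNA, 4 for piRNA, 9 for gencode and 8 for circular RNA. Whether the replicate numbers pair samples is not known, and 3 libraries per group cannot settle it. Deviations of same-numbered libraries across tested miRNA correlated at 0.00157, 0.124 and 0.0812. CPC-EV 2 and CPC-EV 3 correlated best with the CMi-EV library of their own number, and CPC-EV 1 with CMi-EV 2 (0.0165).

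CMi-EV 3 has 218887 gencode counts, and a group at 0 at this depth is not shown to lack the transcript.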
